A study of Mus musculus with 8 samples.

Results

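Olfr286 and Olfr287 are a pair of adjoining odorant receptor genes on mouse chromosome 15. They were taken by name as 2 of the 21765 genes in a table of polysome-associated RNA, and are 2 of its 1090 receptor genes. RNA was sequenced from the main olfactory epithelium, the sheet of nasal tissue that holds the olfactory sensory neurons, in 8 libraries, 2 in each of 4 groups. Wild type (WT) tissue came from mice with Mex3a flox/flox or flox/+ and no Cre, and conditional knockout (cKO) tissue from mice with Mex3a flox/flox and Cre, so floxed Mex3a is common to all groups. All tissue was treated with 100 µg/mL cycloheximide, which holds ribosomes on mRNA, and spun through sucrose gradients. Early polysomes (fractions 27 to 34) and late polysomes (fractions 35 to 42, with more ribosomes per mRNA) were pooled from each of 4 lysates, 2 WT and 2 cKO, and each pool gave 1 library. No label gives an age, or the number of mice in a lysate.

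Odorant receptors are G protein-coupled receptors on the cilia of olfactory sensory neurons. Each mature neuron transcribes 1 receptor gene, from 1 of its alleles, so in whole epithelium the RNA of a receptor gene follows both how many neurons chose that gene and how much RNA each of them holds. In these bulk samples fewer such neurons and less RNA per neuron cannot be told apart. Mex3a, the deleted gene, encodes an RNA-binding protein with KH domains and a RING finger.

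The pair was chosen for its lower level in the cKO libraries, so the comparison of cKO with WT is given here as a description, and the tests on it support nothing. The comparisons of late with early polysomes did not choose the genes.

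Both genes lie on the minus strand and are transcribed in the same direction. In the GENCODE annotation of GRCm38 (the mm10 build), Olfr286 (ENSMUSG00000059460.7) spans chr15:98224308-98234450 and Olfr287 (ENSMUSG00000090129.10) spans chr15:98206971-98221056. A gap of 3.25 kb separates them, and their start sites are 13.4 kb apart. The coding transcript of Olfr286 has 4 exons and 975 coding nucleotides, and that of Olfr287 has 3 exons and 969. In both, almost the whole reading frame lies in the last exon, as is usual for this family, and the last exon also carries the 3′ untranslated region. Another receptor gene, Olfr288, lies 11.4 kb beyond the 3′ end of Olfr287 on the same strand.

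The 3 genes are close copies, and this bears on every value below. Over their coding sequences Olfr286 and Olfr287 are 93.6% identical, Olfr287 and Olfr288 95.6%, and Olfr286 and Olfr288 90.6%. The next most similar receptor genes are far behind, at 60.8% to Olfr286 (Olfr1337) and 60.5% to Olfr287 (Olfr1339). Over the 954 coding positions aligned in all 3 genes, 77 do not agree in all of them. At 52 of these Olfr286 is the one that stands apart, at 21 Olfr288, and at 4 Olfr287. The stretch of 120 coding bases with most such positions, 23 of 120, is given for each gene, read from the GENCODE transcripts, to show where in the reading frame the copies differ most. It lies in the last exon of each gene, at chr15:98226867-98226986 in Olfr286, chr15:98207606-98207725 in Olfr287 and chr15:98187016-98187135 in Olfr288 (GRCm38, minus strand). Capitals mark the positions at which the 3 genes do not all agree.
Olfr286: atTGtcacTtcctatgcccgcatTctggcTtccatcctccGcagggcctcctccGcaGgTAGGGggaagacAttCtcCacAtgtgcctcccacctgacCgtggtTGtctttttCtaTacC
Olfr287: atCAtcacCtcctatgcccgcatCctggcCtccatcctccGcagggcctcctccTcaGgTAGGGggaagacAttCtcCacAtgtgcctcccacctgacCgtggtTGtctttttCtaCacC
Olfr288: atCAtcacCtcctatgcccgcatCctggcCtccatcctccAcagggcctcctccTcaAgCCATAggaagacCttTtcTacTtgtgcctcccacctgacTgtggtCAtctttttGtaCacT

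Elsewhere the genes share long runs without a difference. Olfr287 and Olfr288 share 668 bases in a row, and Olfr286 shares 221 with each of the others. Of all windows of 100 bases along the coding transcript, 33.9% in Olfr287 occur unchanged in the transcript of another receptor gene, against 28.7% in Olfr288 and 4.73% in Olfr286. How the submitters treated reads that match several genes is not given in the sources used here, so the level of Olfr287, and that of Olfr288, is uncertain over a larger part of its transcript than that of Olfr286. Olfr287 also shares 290 of its 2706 exonic bases with Gm44579, an annotated gene on the same strand that runs from Olfr288 into Olfr287 and has no row of its own in the table. The TPM steps give relative lengths only, and the unit was set where the largest number of genes matched the annotated length. In that unit they imply lengths of 4500 bases for Olfr286, 2460 for Olfr287 and 2570 for Olfr288. The annotation has 3821, 2706 and 2569 exonic bases. Of 13678 genes compared, 551 lay within 0.05% of the annotated length, a count that the choice of unit favoured. The gene models behind the TPM may thus differ from those described here.

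Olfr286 was high for a receptor gene in WT. Its deposited TPM (transcripts per 1000000, a level per length of transcript) was 9.54 and 10.4 in the WT early libraries and 11.0 and 10.5 in the WT late libraries. In the cKO libraries it was 4.12 and 5.42 in early polysomes and 3.83 and 4.95 in late polysomes. The 4 cKO libraries all lay below the 4 WT libraries, with no overlap, and lysate 2 was above lysate 1 in both cKO fractions. Whole reads could be inferred from the steps between TPM values. They were 208, 225, 210 and 205 in the WT libraries and 88, 107, 63 and 60 in the cKO libraries, in the order used for TPM.

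Olfr287 was lower than its neighbour in every library. In WT its TPM was 3.95 and 3.56 in early polysomes and 2.69 and 3.08 in late polysomes. In cKO it was 0.171 and 0.278 in early polysomes and 0.222 and 0.453 in late polysomes. Behind these values stood 47, 42, 28 and 33 reads in WT, against 2, 3, 2 and 3 in cKO. The cKO libraries were again all below the WT libraries. With 2 or 3 reads each, the cKO libraries cannot be ordered among themselves: the exact 95% Poisson interval is 0.242 to 7.22 for 2 reads and 0.619 to 8.77 for 3, counting error only.

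**Figure D1:**
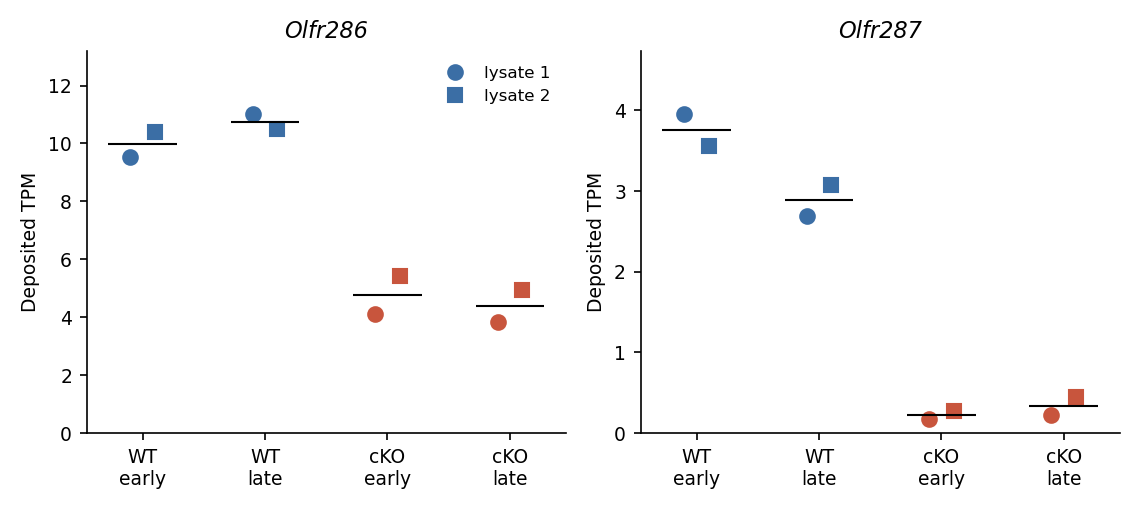
Deposited TPM of Olfr286 (left) and Olfr287 (right) in each of the 8 libraries, with WT in blue, cKO in red, circles for lysate 1, squares for lysate 2 and a black line at the mean of 2 libraries. WT libraries of Olfr286 sit between 9.54 and 11.0 and cKO libraries between 3.83 and 5.42, and WT libraries of Olfr287 between 2.69 and 3.95 and cKO libraries between 0.171 and 0.453.

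After scaling of TPM between libraries by median ratios, the order of the 4 groups was as follows (mean ± SD, n = 2 each). In WT, Olfr286 had 10.2 ± 0.732 in early and 10.2 ± 0.496 in late polysomes. In cKO it had 5.07 ± 1.06 in early and 4.26 ± 0.661 in late polysomes. The WT groups did not differ beyond their spread, nor did the cKO groups. Olfr287 was highest in WT early polysomes at 3.83 ± 0.242, then in WT late polysomes at 2.73 ± 0.231. In cKO it had 0.326 ± 0.15 in late and 0.239 ± 0.0841 in early polysomes. Its WT early libraries lay above its WT late libraries, and its cKO groups overlapped.

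The remaining level in cKO differed between the pair. For Olfr286 it was 49.8% of WT in early and 41.8% in late polysomes, and 45.8% over both. Counting error in the reads alone allows 40.2% to 52.3% over both fractions (95% interval). For Olfr287 it was 6.25% of WT in early and 11.9% in late polysomes, and 8.62% over both, from 10 reads in cKO against 150 in WT, with a counting interval of 3.84% to 15.4%. The counting intervals of the genes do not meet, but they leave out the spread between lysates. Within each library, Olfr287 stood at 24.4% to 41.3% of the TPM of Olfr286 in WT and at 4.16% to 9.15% in cKO.

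Mex3a itself had 97.4, 116, 93.2 and 95.6 TPM in the WT libraries and 13.9, 19.8, 11.1 and 13.8 TPM in the cKO libraries, in the same order. One library, WT early replicate 2 by its title, is tagged with the genotype of the knockout, and its title was followed. Its Mex3a, at 116 TPM, lies with the other WT libraries. Mex3a changed by -2.67 ± 0.14 (log2, SE) in the comparison of lysate means, with an adjusted p of 0.0227 (limma, Benjamini-Hochberg).

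On the scale of log2(scaled TPM + 1), which understates the change of a low gene such as Olfr287, the cKO-minus-WT differences of Olfr286 were -0.89 ± 0.18 (SE) in early polysomes, -1.09 ± 0.18 in late polysomes and -0.99 ± 0.14 for lysate means. Those of Olfr287 were -1.96 ± 0.25, -1.50 ± 0.25 and -1.73 ± 0.20. At an adjusted p under 0.05 over 16097 genes, 0 of the 2 genes were called in any of these 3 comparisons. The share of all genes called was 0.0435% in early polysomes, 0.0124% in late polysomes and 0.00621% for lysate means, where Mex3a was the 1 gene called. Every cKO library was below every WT library for both genes, as for 1.28% of all genes tested, and this is not evidence on its own because the pair was chosen on this contrast. With 2 lysates in each genotype, an exact two-sided permutation test of a single gene cannot give a p below 0.333. The calls of both genes depended on the setting. For voom the inferred reads of the early and late library of each lysate were summed, in place of the lysate means. On these lysate sums voom gave an adjusted p of 0.0266 for Olfr286 and 0.0275 for Olfr287. By voom, 0.124% of all genes were called in early polysomes, Olfr287 among them, and 0.0933% in late polysomes, Olfr286 among them. For lysate sums the share was 0.361%.

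The receptor genes as a whole had a median close to WT. Of the 824 receptor genes tested, 0 were called in any genotype comparison, while 109, 122 and 149 had an unadjusted p under 0.05 in early polysomes, late polysomes and lysate means, against 1069, 1506 and 1823 of all 16097 genes. With voom on the inferred reads, with lysate sums in place of means, 6, 3 and 16 of the 824 were called. Of all 16085 genes 20, 15 and 58 were called. Among them were Olfr287 in early polysomes, Olfr286 in late polysomes and both for lysate sums. The median cKO-minus-WT difference of the receptor genes was 0.015 in early and -0.10 in late polysomes, where 498 of the 824 were below 0, and -0.032 for lysate means, and their median cKO level was 97.5% of WT. Every cKO library was below every WT library for 61 of them (7.4%) and above for 22 (2.67%), where the shares of all genes were 1.28% and 1.0%. By remaining level Olfr287 was second from lowest, after Olfr1281 at 8.36%, and before Olfr978 at 13.4%, Olfr1206 at 15.3% and Olfr183 at 20.4%. Olfr286 was 36th from lowest.

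In level, Olfr286 ranked 17th of 1090 receptor genes in WT, at a mean deposited TPM of 10.4 where the median receptor gene had 1.91, and 112th in cKO. Olfr287 ranked 254th in WT and 1021st in cKO. Olfr286 made up 0.341% to 0.42% of all receptor TPM in the WT libraries and 0.16% to 0.211% in the cKO libraries. The summed deposited receptor TPM itself was 2604 and 3052 (WT) and 2569 and 2860 (cKO) in early polysomes, which overlap. In late polysomes the sums were 2632 and 2685 for WT, against 2235 and 2348 for cKO, lower in cKO without overlap, and its part in the late values of the pair was not tested. The receptor genes next to the pair in mean level over all libraries were closer to their WT level or above it: Olfr1389, Olfr2, Olfr672 and Olfr1364, next to Olfr286, had cKO levels of 104% to 158% of WT. Olfr1410, Olfr748, Olfr539 and Olfr403, next to Olfr287, had 87.2% to 177%. None of these 8 genes had all cKO libraries below all WT libraries, where the share of all tested receptor genes was 7.4%. At that share a count of 0 among 8 says little. The match was on the mean over both genotypes, so it favoured genes with a lower WT level than the pair. Mean deposited TPM in WT was 5.94 to 7.80 next to Olfr286 (10.4) and 1.33 to 1.96 next to Olfr287 (3.32).

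**Figure D2:**
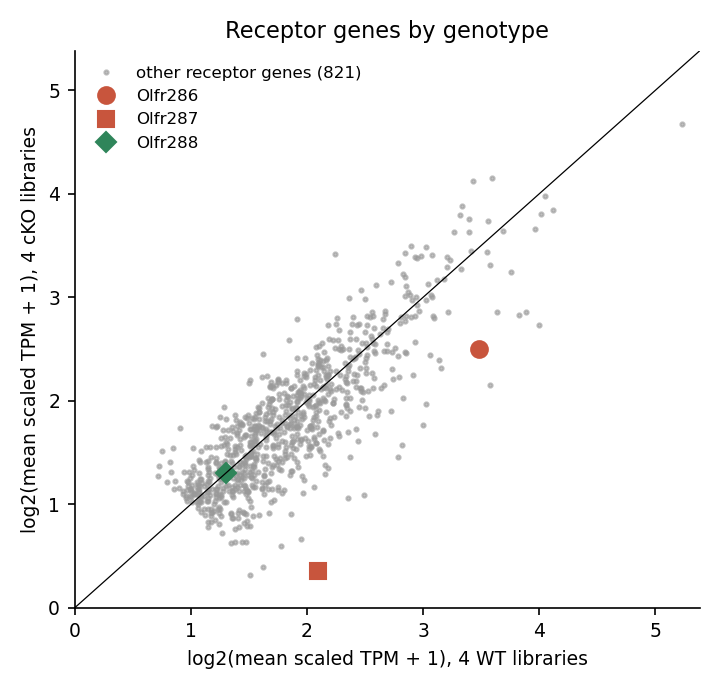
Mean level of the 824 tested receptor genes in the 4 WT libraries (x axis) and the 4 cKO libraries (y axis), both as log2(mean scaled TPM + 1), with the line of equal level. Olfr286 (red circle) and Olfr287 (red square) lie below the line, at 45.8% and 8.62% of the WT level, and Olfr288 (green diamond) lies on it, at 101%.

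Olfr288, the closest copy of Olfr287, had about the same level in both genotypes. In WT its TPM was 1.85 and 1.86 in early polysomes and 0.92 and 1.25 in late polysomes. In cKO it was 1.55 and 2.04 in early polysomes and 0.957 and 1.15 in late polysomes. WT and cKO overlapped in both fractions, and the cKO mean was 101% of WT, from 8 to 23 reads in each library. Since reads of Olfr287 and Olfr288 may have been assigned to either, their sum was also taken: it held 38 to 70 reads in the WT libraries and 11 to 26 in the cKO libraries, and its scaled TPM in cKO was 36.9% of WT. Summed over all 3 genes the scaled TPM in cKO was 43.0% of WT. The summed reads of the 3 genes, which do not depend on how assigned reads were divided among them, were 1068 in WT and 387 in cKO, and their mean share of all inferred reads in cKO was 44.3% of WT. Reads that were assigned to none of the 3 are in no sum.

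On the other side of the pair lie 6 more receptor genes within 1 Mb. Olfr281, 218.1 kb away and on the plus strand, had 7.04, 9.25, 6.72 and 6.60 TPM in WT and 4.40, 5.49, 3.67 and 3.73 TPM in cKO, in the order early then late. It was the 1 neighbouring receptor gene of 7 with every cKO library below every WT library, where 7.4% of all tested receptor genes had this. Olfr281 stood at 60.5% of WT, with a change of -0.62 ± 0.14 for lysate means and an adjusted p of 0.341 (limma). Olfr282 was at 66.6% of WT, Olfr283 at 73.9%, Olfr285 at 77.6% and Olfr284 at 85.9%, each with overlap between genotypes over both fractions. Within 1 fraction they did not overlap: late polysomes for Olfr282 (3.61 and 3.00 TPM in WT, 1.19 and 1.89 in cKO) and Olfr285 (3.42 and 4.16 in WT, 2.65 and 2.11 in cKO), and early polysomes for Olfr283 (5.51 and 4.87 in WT, 3.33 and 3.52 in cKO) and Olfr284 (7.86 and 7.26 in WT, 4.58 and 5.96 in cKO). The fraction named for each gene was chosen by these values, and in its other fraction the genotypes overlapped. The share of all genes without overlap in 1 fraction was not counted. With 2 libraries on each side, an exact two-sided permutation test cannot give a p below 0.333. Olfr279, the farthest at 258.0 kb, was at 137% of WT. Over the 7 neighbouring receptor genes the median change was -0.25, where that of all tested receptor genes was -0.032.

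Genes of other families around the pair had levels nearer to WT than the pair had. The nearest tested ones were Zfp641, a zinc finger gene 51.1 kb away at 118% of WT, Ccdc184, 36.8 kb away at 105%, and Asb8, 41.3 kb away at 108%. The 40 tested genes within 1 Mb that are no receptor genes had a median change of 0.065, between -0.25 (Snora2b) and 0.41 (Prph). Prph, at 134% of WT with an adjusted p of 0.276 for lysate means (limma), was above WT without overlap within each fraction. All cKO libraries lay below all WT libraries for 0 of the 40, where the share of all tested genes was 1.28%. At that share a count of 0 among 40 says little. Of the 47 neighbours, 0 were called in a genotype comparison by limma or by voom, against the shares of all genes given above. In early polysomes, late polysomes and lysate means, 2, 3 and 3 of them had an unadjusted p under 0.05 (limma). Of all 16097 genes, 1069, 1506 and 1823 did.

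**Figure D3:**
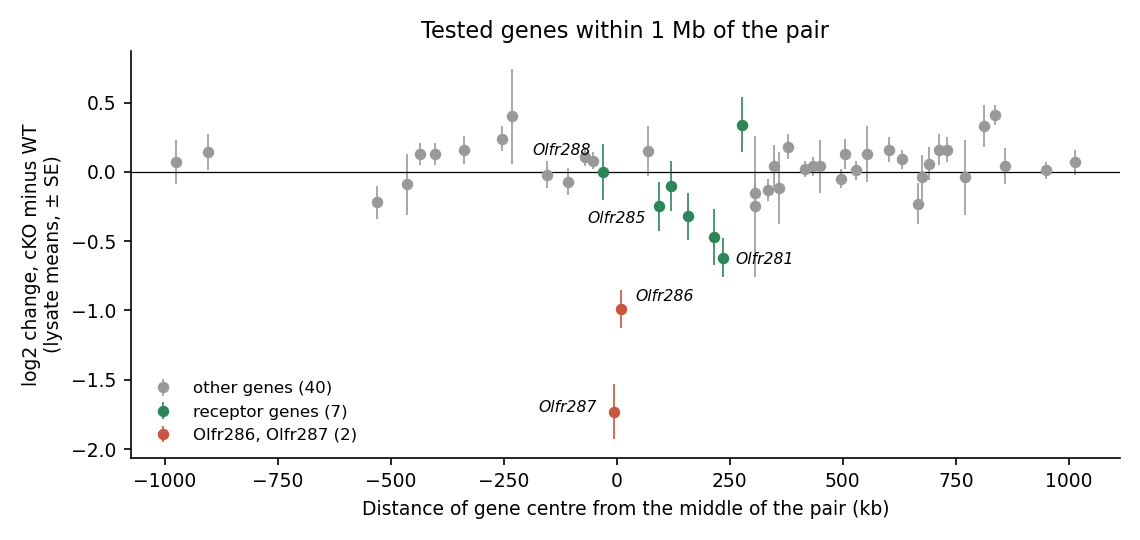
Change in cKO against WT (log2 of scaled TPM + 1, lysate means, bars ± SE from limma) of each tested gene within 1 Mb, against the distance of its centre from the middle of the pair in kb, with the direction of increasing coordinate to the right. Olfr287 at -1.73 and Olfr286 at -0.99 lie below the 7 other receptor genes (-0.62 to 0.34, green) and the 40 other genes (-0.25 to 0.41, grey).

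The promoters of the pair are not alike in the motifs searched. Receptor promoters are known for sites of homeodomain factors such as Lhx2 and Emx2, searched here by the letters AATTA, and of early B-cell factors (Ebf, the O/E proteins). For the latter the palindromic core CCCNNGGG was searched, which does not allow for sites that depart from it. These motifs and TATAAA, the TATA box, were searched on both strands in the 250 bases before each start site. They were picked after the promoter sequences had been read. The sequences below come from the RefSeq promoter table for GRCm38.p6, minus strand, chr15:98234451-98234700 for Olfr286 and chr15:98221057-98221306 for Olfr287, 5′ to 3′ in the direction of transcription, with motif matches in capitals.
Olfr286: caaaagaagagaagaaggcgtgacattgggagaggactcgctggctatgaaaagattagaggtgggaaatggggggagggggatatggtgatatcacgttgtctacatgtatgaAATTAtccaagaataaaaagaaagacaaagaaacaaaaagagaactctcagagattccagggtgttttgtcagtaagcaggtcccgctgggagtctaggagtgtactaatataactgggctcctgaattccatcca
Olfr287: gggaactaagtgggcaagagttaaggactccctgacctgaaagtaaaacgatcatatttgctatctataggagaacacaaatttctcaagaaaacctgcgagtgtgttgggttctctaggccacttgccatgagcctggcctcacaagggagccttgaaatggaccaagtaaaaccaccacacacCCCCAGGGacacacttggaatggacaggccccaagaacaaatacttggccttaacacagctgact

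The Olfr286 promoter holds AATTA 136 to 132 bases before the start, and the Olfr287 promoter holds CCCCAGGG 65 to 58 bases before it. Of 940 receptor promoters of this length, 69.6% hold AATTA, 2.77% CCCNNGGG and 39.5% TATAAA, against 25.4%, 11.7% and 13.0% of all 27025 promoters. CCCNNGGG was thus rarer in receptor promoters than in all promoters, and AATTA and TATAAA more frequent. These are matches of letters and not measured sites.

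The position of the pair on the gradient was compared within each lysate. For Olfr286 the late-minus-early difference, in log2(scaled TPM + 1), was 0.112 and -0.112 in the WT lysates and -0.151 and -0.252 in the cKO lysates. The WT lysates went opposite ways by the same amount. For Olfr287 it was -0.486 and -0.257 in the WT lysates and 0.0488 and 0.141 in the cKO lysates. The cKO values of Olfr287 rest on 2 or 3 reads in each library.

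Neither gene passed the test of late against early polysomes. For Olfr286 the change was -6.8e-06 ± 0.18 (SE) in WT (adjusted p = 1.0), -0.20 ± 0.18 in cKO (adjusted p = 0.362) and -0.10 ± 0.13 over both genotypes (adjusted p = 0.502, limma). For Olfr287 it was -0.37 ± 0.25 in WT (adjusted p = 0.232), 0.095 ± 0.25 in cKO (adjusted p = 0.759) and -0.14 ± 0.17 over both (adjusted p = 0.501, limma). These 2 genes stand against a background in which 54.8% of all genes were called in WT, 58.1% in cKO and 68.9% over both genotypes. Of the 824 receptor genes, 60 were called lower and 24 higher in late polysomes in WT, and 120 lower and 9 higher in cKO. The median late-minus-early difference of receptor genes was -0.14 in WT and -0.28 in cKO. The call of Olfr287 in WT depended on the mean-variance trend: without it the adjusted p was 0.044.

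The difference between genotypes in the late-minus-early change was -0.20 ± 0.26 for Olfr286 and 0.47 ± 0.35 for Olfr287, each with an adjusted p of 1.0 (limma interaction term). The share of all genes called in this comparison was 0.00621%. For the receptor genes its median was -0.13, with 0 of 824 called by limma, 35 at an unadjusted p under 0.05 and 0 called by voom. With 2 lysates in each genotype, an exact two-sided permutation test of this difference cannot give a p below 0.333. For late against early within lysates the floor of such a test is 0.125 over all 4 lysates, and higher within 1 genotype.

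**Figure D4:**
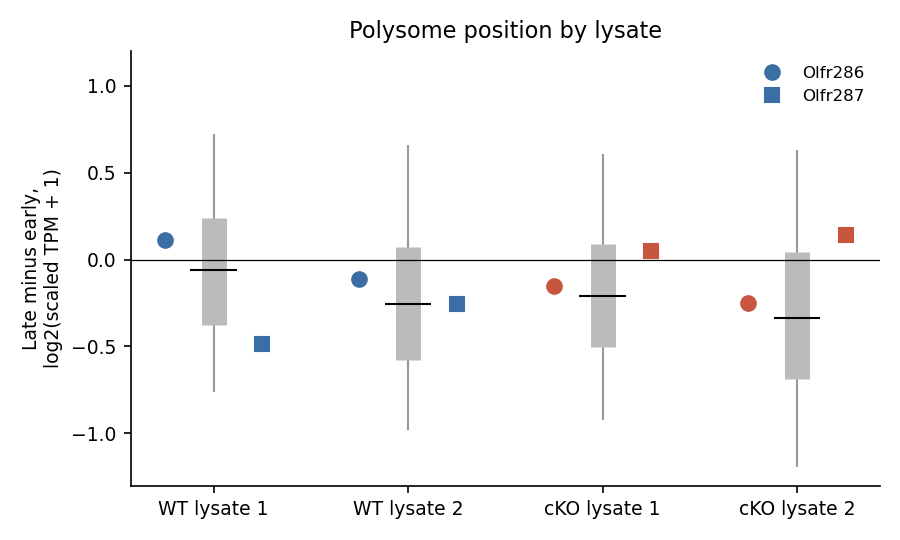
Late minus early polysomes within each lysate, in log2(scaled TPM + 1), for Olfr286 (circles) and Olfr287 (squares), with WT in blue and cKO in red. Black lines mark the median of 824 receptor genes in that lysate (-0.0599 and -0.254 in WT, -0.21 and -0.334 in cKO), grey boxes the quartiles and grey lines the 5th to 95th percentile. All 8 values of the pair lie within the grey lines.

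The genes whose level followed the pair most closely across the 8 libraries were looked up among 12815 genes with a mean TPM of at least 5, as a description, since the 8 libraries come from 4 lysates and share their genotypes. Mex3a was first for both, with Pearson's r of 0.99 to Olfr286 and 0.977 to Olfr287. For Olfr286 it was followed by Olfr727 (0.985), Cdh18, a cadherin (0.963), Csnk2a1, the catalytic subunit of casein kinase 2 (0.959), and Olfr743 (0.953). For Olfr287 it was followed by Cdh18 (0.971), Lrrn3 (0.967), Csnk2a1 (0.95) and Olfr743 (0.95). Among 94 receptor genes of that level, Olfr727, Olfr743 and Olfr726 were the closest to both members. Olfr727 had 12.7, 15.3, 14.9 and 13.0 TPM in WT and 5.48, 8.28, 4.87 and 5.85 TPM in cKO. Between Olfr286 and Olfr287 r was 0.955. The choice of the pair for its lower cKO level favoured such values in advance. None of them is thus evidence of a link to Mex3a or between the 2 genes.

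The machinery that receptors need held no gene called by genotype. Of 14 genes for odorant signal transduction, 14 for receptor choice and 3 for receptor export, 0 were called by limma in each of the 3 genotype comparisons, against the shares of all genes given above, and 0 by voom. At an unadjusted p under 0.05 stood 1, 1 and 0 of them in early polysomes, 0, 0 and 2 in late polysomes and 1, 0 and 0 for lysate means. Their median cKO-minus-WT differences for lysate means were -0.059, -0.042 and -0.14, where all genes had 0.0014. The abundant members are given on the same scale with their SE. Omp, the olfactory marker protein of mature neurons, differed by -0.02 ± 0.16, Stoml3, a stomatin-like protein of olfactory cilia, by -0.11 ± 0.12, and Gnb1, a G protein beta subunit, by -0.02 ± 0.10. Among the genes of receptor choice, Atf5, a transcription factor of the response that follows receptor expression, differed by 0.04 ± 0.12, Ebf2 by -0.04 ± 0.09 and Ebf3 by -0.09 ± 0.09. Rtp1 and Rtp2, which carry odorant receptors to the cell surface, differed by -0.14 ± 0.08 and -0.16 ± 0.07, and Reep1, another export helper, by -0.02 ± 0.08. In late polysomes the summed scaled TPM of the 3 export genes was 769 to 784 in WT and 609 to 644 in cKO, without overlap. The part of these levels in those of the pair was not tested.

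Cell type markers were given the same look, because a receptor gene is read only in neurons. All sums of markers are of scaled TPM, unlike the receptor sums above, which are of deposited TPM. The 8 markers of mature olfactory sensory neurons, all present, summed in early polysomes to 10500 to 12900 TPM (WT) and 11500 to 11600 TPM (cKO). In late polysomes the sums were 7950 to 8370 (WT) and 6970 to 7960 (cKO). On these scaled values WT and cKO overlapped in both fractions. The late overlap was only 7960 against 7950, too narrow to say that the late sums did not differ. The 6 markers of immature neurons summed in early polysomes to 1890 to 1920 (WT) and 1730 to 1750 (cKO), and in late polysomes to 2030 to 2180 (WT) and 1810 to 1850 (cKO). These sums were lower in cKO without overlap in both fractions. Single markers differed by -0.288 to -0.0356 in early polysomes and by -0.323 to 0.169 in late polysomes (log2, cKO minus WT). In late polysomes not all of them were thus lower. With 2 libraries on each side, an exact two-sided permutation test cannot give a p below 0.333. The part of these markers in the level of Olfr286 and Olfr287 was not tested. Markers of other cells were present too. The 4 markers of sustentacular cells summed to 1600 to 1750 TPM (WT) and 1350 to 1810 TPM (cKO) in early polysomes, which overlap, and in late polysomes to 4010 to 4350 (WT) and 4460 to 4870 (cKO), higher in cKO without overlap. The 6 markers of ensheathing glia overlapped in early polysomes, at 858 to 1100 (WT) and 802 to 916 (cKO), and were lower in cKO without overlap in late polysomes, at 1050 to 1230 (WT) and 951 to 982 (cKO). In late polysomes single markers differed by -0.0925 to 0.34 for sustentacular cells and by -0.459 to 0.19 for glia (log2). Both lists thus held markers that went the other way. The part of these cells in the level of the pair was not tested either. Sums for globose basal, horizontal basal and blood cells overlapped between genotypes in both fractions, with 3 of 5 blood markers in the table and Hba-a1 and Hbb-bs not listed.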

How the data were processed

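The authors deposited 1 table of TPM with 1 column for each library. Per the submitters' processing notes, the build was mm10, and FastQC, cutadapt, STAR and DESeq2 were used, with no role or version given. How reads were counted is not given in the sources used here. Per the labels' protocols, libraries were stranded total RNA. The Cre line is not reported here. The series design text also speaks of sorted cells and reporter constructs, which no label of these libraries carries.

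TPM was divided by median-ratio factors (0.931 to 1.06), and log2(scaled TPM + 1) of the 16097 genes with a mean TPM of at least 1 was fitted with limma 3.58.1 in R 4.3.3: 4 groups together, mean-variance trend, two-sided p-values with Benjamini-Hochberg adjustment, threshold 0.05. Genotype was also fitted on the mean of each lysate. Nothing says how many animals a lysate holds, so p-values reach no further than the spread between these lysates. In both fits that spread is moderated by the trend over all genes. The fit of 4 groups has no term for the lysate, so it treats the early and late library of a lysate as independent. Whole reads were inferred from the TPM steps (19783 of 19783 genes above 0 in at least 2 libraries, tolerance 0.001) and sum to between 7776792 and 12771079 for a library, lowest in cKO late replicate 2. Intervals from reads cover counting error only. Library names tie the early and late library of a lysate: over all genes, the correlation of their deviations from group means was 0.0862 (WT) and 0.0502 (cKO). The fits and the inference of reads were tested on simulated data.

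Members and lists were chosen with earlier results of these data known. Genes named beside the pair were Mex3a, receptor genes within 1 Mb, the 3 nearest tested genes on each side, the most similar in coding sequence, in level and in pattern, and the top of each list; coding identity (biopython 1.88) stands in for protein identity. The remaining levels of Olfr1281, Olfr978, Olfr1206 and Olfr183 were chosen after their values were seen. Alternatives were pseudocounts of 0.1 and 0.5, other filters, no scaling, quantile normalization, no trend, replicate blocks, only the libraries compared, leaving out each library, and voom on inferred reads. Figures were drawn with matplotlib 3.10.9.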

Additional observations from a re-analysis of the deposited data

How the results depend on the processing

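In cKO against WT, both genes kept a negative change under all 103 alternatives run over the 3 comparisons. Calls were gained under some of them. For Olfr287 in early polysomes the change was -1.96 and called with no filter on low values (adjusted p = 0.0158) and with no trend (0.00651), and -3.80 with voom on inferred reads (0.0237); in late polysomes it was -1.50 and called with no trend (0.0382). For Olfr286 in late polysomes voom gave -1.27 (0.042). On reads summed over each lysate voom gave -1.15 for Olfr286 (0.0266) and -3.54 for Olfr287 (0.0275). For lysate means with a replicate block by number the changes were -0.99 (0.0458) and -1.73 (0.0393). Deviations from group means, over all genes tested, correlated between same-numbered WT and cKO libraries at 0.331 in early and 0.142 in late polysomes. No label makes the numbers a pairing. The block by lysate changed no call of late against early. At a mean TPM of at least 5 Olfr287 was not tested.

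Leaving out each library changed no call. Over these fits Olfr286 ranged from -1.07 to -0.71 in early polysomes, -1.22 to -0.96 in late polysomes and -1.15 to -0.84 for lysate means. Olfr287 ranged from -2.03 to -1.89, -1.61 to -1.38 and -1.82 to -1.64, in the same order. For lysate means, leaving out 1 library removed its whole lysate, so 1 lysate was compared with 2. In late against early, values near 0 changed sign: Olfr286 in WT was 7.2e-05 and 3.4e-05 at pseudocounts of 0.1 and 0.5, 0.098 with TPM as deposited, 0.001 with quantile normalization, 1.8e-05 with voom, and -0.067 to 0.067 without 1 library. Over both genotypes Olfr286 was 0.00044 with TPM as deposited, and Olfr287 was 0.071 with quantile normalization. Olfr287 in cKO was -0.021 to 0.21 without 1 library, below 0 without cKO late replicate 2. In WT, Olfr287 was -0.37 and called with no trend. The cause of these changes was not tested.

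Counts of genes called moved by over 1.5 times in each genotype comparison: from 7 to between 0 and 20 in early polysomes, from 2 to between 0 and 15 in late polysomes, and from 1 to between 0 and 82 for lysate means. Without WT early replicate 2 the count for late against early in WT was 5874 in place of 8824. The interaction had 0 to 7 in place of 1.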
